A study of Mus musculus with 12 samples.

Results

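The 10 genes Bcat2, Bckdha, Bckdhb, Dbt, Bckdk, Ppm1k, Ivd, Mccc1, Pcca and Pccb encode enzymes and regulators of the breakdown of the branched-chain amino acids leucine, isoleucine and valine. They were taken by gene symbol from a table of raw read counts, and all 10 were found among its 38924 genes. In this pathway the mitochondrial transaminase BCAT2 first removes the amino group. The branched-chain ketoacid dehydrogenase complex, built from the E1 subunits BCKDHA and BCKDHB, the E2 core DBT and the shared E3 subunit DLD, then commits the carbon chain to oxidation. The kinase BCKDK switches this complex off by phosphorylating BCKDHA, and the phosphatase PPM1K switches it on again. Downstream, IVD and the biotin enzyme methylcrotonyl-CoA carboxylase (MCCC1 and MCCC2) carry the leucine chain toward acetoacetate and acetyl-CoA. The biotin enzyme propionyl-CoA carboxylase (PCCA and PCCB) carries propionyl-CoA, from valine and isoleucine, toward the TCA cycle. Brown fat, the tissue that burns fuel to make heat, is known to oxidise branched-chain amino acids in the cold.

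The counts came from RNA sequencing of interscapular brown fat, the depot between the shoulder blades, of 12 wild-type C57BL/6J mice. From 10 to 14 weeks of age, 4 mice each lived at 30 °C (labelled thermoneutral), 22 °C (labelled room temperature) or 6 °C (labelled severe cold), and no group received any other treatment. Each library is 1 mouse. The question asked of the pathway was how its transcripts differed after 4 weeks at each temperature.

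Library totals ranged from 18290162 to 32513051 counts, except 86438386 in 22 °C mouse 3, and the members held between 432 and 54176 counts in a library. At 30 °C, 2 of the 4 columns bear a number found in no sample title. They were placed at 30 °C only by the letter T of their names and are called mice A and B. All 12 brown adipocyte markers had a mean of at least 1 CPM (counts scaled to the library total and by TMM, the trimmed mean of M values) at each temperature. Their summed level was 11548 to 13552 CPM at 30 °C, 17706 to 20852 CPM at 22 °C and 24794.5 to 27113.5 CPM at 6 °C. Ucp1 alone averaged 1469, 3373 and 10439 CPM at 30, 22 and 6 °C. Of the 12, 8 were higher and 0 lower at 22 °C than at 30 °C (21.8% and 22.8% of all tested genes were). At 6 °C against 22 °C 2 were higher and 3 lower (16.9% and 17.4%). At 6 °C against 30 °C 7 were higher and 1 lower (25.3% and 31.5%). Of the markers of other cells, 10 of 12 macrophage, 8 of 10 fibroblast and preadipocyte, 6 of 9 endothelial, 7 of 7 tested T and natural killer cell and 3 of 6 tested white adipocyte genes were lower at 6 °C than at 30 °C, 1 white adipocyte gene was higher, and none of 15 skeletal muscle genes passed. The summed macrophage markers were 528 to 1719 CPM at 30 °C, 143 to 203 CPM at 22 °C and 235 to 484 CPM at 6 °C. Skeletal muscle markers varied within each group, from 1023 to 5307 CPM at 30 °C, 1032 to 3927 CPM at 22 °C and 41.6 to 1980.4 CPM at 6 °C. With the mean log2 CPM of the macrophage markers as a covariate, 0 of the 10 members were called at 22 °C against 30 °C. Of all tested genes only 12 were higher and 20 lower in that fit. The macrophage sums overlapped between none of the groups, so these markers and the temperature cannot be told apart in any comparison. The part of the other cells in the results below was not tested. In bulk tissue, fewer cells of a type and less RNA per cell cannot be told apart.

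The pathway did not move as a block. Going from 30 °C to 22 °C, 9 of the 10 genes rose and none fell, where 21.8% of all tested genes rose and 22.8% fell (44.6% in either direction). From 22 °C to 6 °C, Dbt and Pcca rose again (16.9% of all tested genes rose). Bcat2, Ivd, Pccb, Bckdk and Ppm1k fell (17.4% of all tested genes fell, and 34.2% passed in either direction), and Bckdha, Bckdhb and Mccc1 did not pass. Set directly against 30 °C, 5 of the 10 were higher at 6 °C (25.3% of all tested genes were) and only Bcat2 was lower (31.5% of all tested genes were, and 56.8% passed in either direction). The median log2 fold change of the members was 0.50 for 22 °C against 30 °C, -0.17 for 6 °C against 22 °C and 0.26 for 6 °C against 30 °C, beside -0.02, -0.03 and -0.11 over all 14870 tested genes. These pairs of temperatures share mice. The split of all tested genes depends on the scaling: with TMM 3767 were higher and 4677 lower at 6 °C than at 30 °C and 3248 higher and 3386 lower at 22 °C than at 30 °C, and with total counts only these were 1939 and 7888, and 1419 and 6224. Total counts moved the median log2 fold change of all genes by -0.32 and -0.26 in these comparisons, and 5 members then rose at 22 °C. Changes are log2 fold changes from the quasi-likelihood (QL) F-test of edgeR, with p adjusted after Benjamini and Hochberg over all tested genes, and a gene is said to have risen or fallen at an adjusted p under 0.05.

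**Figure D1:**
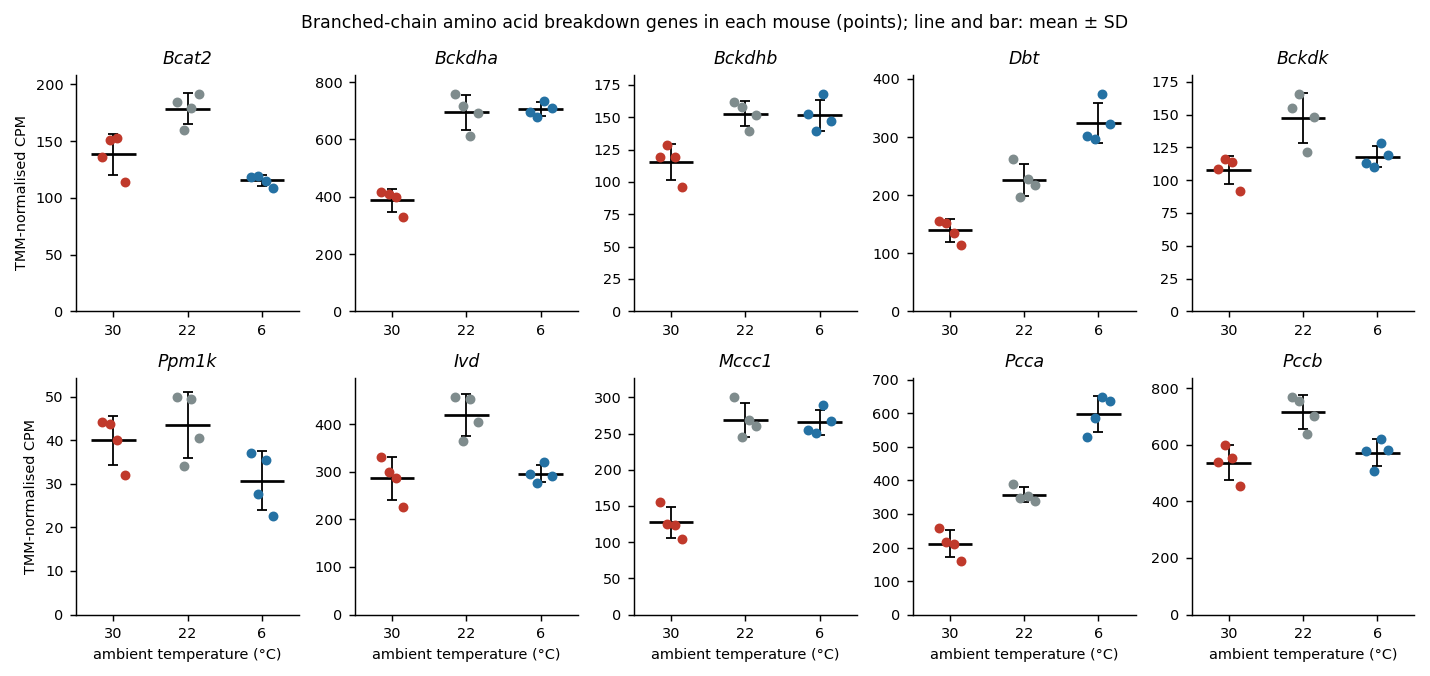
TMM-normalised CPM (vertical axis, from 0) of each of the 10 genes in each mouse (points) at 30, 22 and 6 °C, with the mean and SD over 4 mice. Dbt and Pcca step upward at each drop in temperature, and Bckdha, Bckdhb and Mccc1 step up once. Bcat2, Bckdk, Ivd and Pccb peak at 22 °C.

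Pcca and Pccb, which encode the biotin-carrying alpha subunit and the beta subunit of the same carboxylase, parted between 22 °C and 6 °C. Pcca lies on chromosome 14 from 122534324 to 122891100 and Pccb on chromosome 9 from 100982032 to 101034898 (GRCm38, both protein-coding). At 30 °C Pcca stood at 258, 216, 210.0 and 160.2 CPM in mice 1, 2, A and B. At 22 °C it stood at 390.0, 349, 355 and 338 CPM, and at 6 °C at 529.6, 585, 648 and 636 CPM, in mice 1 to 4. No mouse of a colder group overlapped a warmer group. Pcca rose from 211 ± 39.9 CPM (SD, n = 4) to 358 ± 22.7 and then to 599.5 ± 53.9, a 2.84-fold change from 30 °C to 6 °C (log2 fold change 1.51, SE 0.12, adjusted p = 8.7e-07, edgeR QL test). The step to 22 °C was 0.76 (SE 0.12, adjusted p = 3.4e-04) and the step to 6 °C 0.74 (SE 0.12, adjusted p = 6.9e-04).

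Pccb stood at 539, 601, 553 and 455 CPM at 30 °C, at 767, 756, 639 and 703 CPM at 22 °C and at 577, 507, 622 and 581 CPM at 6 °C. Its 22 °C mice were above all others, and its 6 °C and 30 °C mice overlapped. Pccb rose by 0.42 at 22 °C (SE 0.10, adjusted p = 0.0043) and fell by 0.32 from 22 °C to 6 °C (SE 0.10, adjusted p = 0.024), edgeR QL test. At 6 °C against 30 °C its log2 fold change was 0.09 (SE 0.10, adjusted p = 0.45), and when scaled by total counts alone it was -0.22 (adjusted p = 0.018). The rise was not called with that scaling (0.16, adjusted p = 0.093), and the fall was not called without 22 °C mouse 1, 22 °C mouse 2 or 6 °C mouse 2 (adjusted p = 0.064, 0.061 and 0.079). Nor was the fall called with the macrophage markers as a covariate (-0.14, adjusted p = 0.50). Rise and fall were both lost with mouse number as a block, without mice A and B (adjusted p = 0.12 and 0.052).

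The ratio of Pcca to Pccb counts within a library does not depend on how libraries are scaled. Its log2 value was -1.36 ± 0.20 (SD, n = 4) at 30 °C, -0.9997 ± 0.12 at 22 °C and 0.07 ± 0.14 at 6 °C, so that the ratio rose 2.69-fold from 30 °C to 6 °C. All 4 mice at 6 °C lay above all other mice (exact permutation test, two-sided, p = 0.0286 against either group, the smallest that 4 against 4 mice allow). After adjustment over the 24 ratio tests the exact permutation p was 0.0361. Between 30 °C and 22 °C the exact permutation p was 0.0571 (0.0686 adjusted), with 30 °C mouse 1 lying among the 22 °C mice. The ratios compare unequal change and do not show that either gene stayed still.

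The promoter windows of this pair are shown because the genes of 1 enzyme moved apart. Each runs from 250 bases before to 50 after the RefSeq start (GRCm38.p6), is written 5′ to 3′ on the gene's strand, and has in capitals the matches on either strand to any of the motifs AAGGTCA (bound by nuclear receptors such as the estrogen-related receptors), CACGTG (E-box), TGACG (part of the cAMP response element), CCAAT and GGGCGG (GC box).
Pcca, chr14:122534078-122534377, plus strand: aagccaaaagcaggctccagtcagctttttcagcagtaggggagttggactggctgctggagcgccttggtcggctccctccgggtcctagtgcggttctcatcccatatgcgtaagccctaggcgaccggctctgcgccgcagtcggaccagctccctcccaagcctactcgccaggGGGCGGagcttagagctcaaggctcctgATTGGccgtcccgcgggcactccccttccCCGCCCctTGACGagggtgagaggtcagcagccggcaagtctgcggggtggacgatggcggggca
Pccb, chr9:101034835-101035134, minus strand: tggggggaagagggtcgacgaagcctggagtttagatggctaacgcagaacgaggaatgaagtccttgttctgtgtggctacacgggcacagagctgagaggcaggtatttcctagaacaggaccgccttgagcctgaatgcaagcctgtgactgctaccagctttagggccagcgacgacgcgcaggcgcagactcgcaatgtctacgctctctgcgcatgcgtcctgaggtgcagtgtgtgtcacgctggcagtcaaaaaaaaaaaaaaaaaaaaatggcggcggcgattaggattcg
The Pcca window held 2 GC boxes, 1 CCAAT on the minus strand and 1 TGACG, and the Pccb window held none of these letters. The motifs did not overlap each other in the Pcca window. Of the 9 members with a window (Dbt has none in the table), 6 held CCAAT, 4 GGGCGG, 2 TGACG, 0 AAGGTCA and 0 CACGTG, where 37.4%, 35.7%, 20.8%, 4.72% and 7.15% of all 32851 windows did. A match is a string of letters and not evidence that a factor binds there.

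The ketoacid dehydrogenase genes all rose, each by its own amount. Bckdha (chromosome 7 from 25629946 to 25658981) stood at 416, 409, 399 and 329 CPM at 30 °C, at 757, 716, 611 and 692 CPM at 22 °C and at 696, 678, 735 and 709.5 CPM at 6 °C. The 30 °C mice lay apart from both other groups, which overlapped. Bckdha rose by 0.84 at 22 °C (SE 0.09, adjusted p = 3.0e-05) and stood at 0.02 for 6 °C against 22 °C (SE 0.09, adjusted p = 0.87), edgeR QL test. Of its exons, 61.7% lie under B3gnt8 on the other strand, and whether the authors counted by strand is not given in the sources used here. B3gnt8 itself was counted at 2.66 ± 0.94 CPM at 30 °C, 1.44 ± 0.34 at 22 °C and 1.31 ± 0.36 at 6 °C (SD, n = 4).

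Bckdhb (chromosome 9 from 83925145 to 84124240) ranged from 95.9 to 128 CPM at 30 °C, 139 to 162 CPM at 22 °C and 139 to 168 CPM at 6 °C. It rose by 0.40 at 22 °C (SE 0.09, adjusted p = 0.0036, edgeR QL test) and stood at -0.01 for 6 °C against 22 °C (SE 0.09, adjusted p = 0.95). When scaled by total counts alone its rise was not called (0.14, adjusted p = 0.10). Nor was its difference at 6 °C against 30 °C (0.08, adjusted p = 0.34), which was 0.39 with TMM (adjusted p = 0.0031). With mouse number as a block, without mice A and B, neither was called (adjusted p = 0.10 and 0.072). The log2 ratio of Bckdha to Bckdhb, which form the E1 heterotetramer, went from 1.75 ± 0.06 (SD, n = 4) at 30 °C to 2.18 ± 0.04 at 22 °C and 2.22 ± 0.07 at 6 °C. It was higher in every 22 °C and 6 °C mouse than in any 30 °C mouse (exact permutation p = 0.0286, 0.0361 adjusted, for each).

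Dbt (chromosome 3 from 116513070 to 116549981), the E2 core that carries lipoic acid, rose at both steps. It stood at 156, 152, 134 and 114 CPM at 30 °C, at 263, 197, 228 and 218 CPM at 22 °C and at 302, 298, 374 and 323 CPM at 6 °C. The 3 groups did not overlap. From 30 °C to 6 °C Dbt rose 2.33-fold, from 139 ± 19.2 to 324 ± 35.0 CPM (SD, n = 4; log2 fold change 1.22, SE 0.12, adjusted p = 3.2e-06, edgeR QL test). Its first step was 0.70 (SE 0.12, adjusted p = 4.2e-04) and its second 0.52 (SE 0.12, adjusted p = 0.0048). Relative to Bckdha in the same library, Dbt was 1.41-fold higher at 6 °C than at 22 °C (exact permutation p = 0.0286, 0.0361 adjusted, n = 4 each). Between 22 °C and 30 °C that ratio differed by -0.14 on the log2 scale (exact permutation p = 0.286, 0.312 adjusted).

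**Figure D2:**
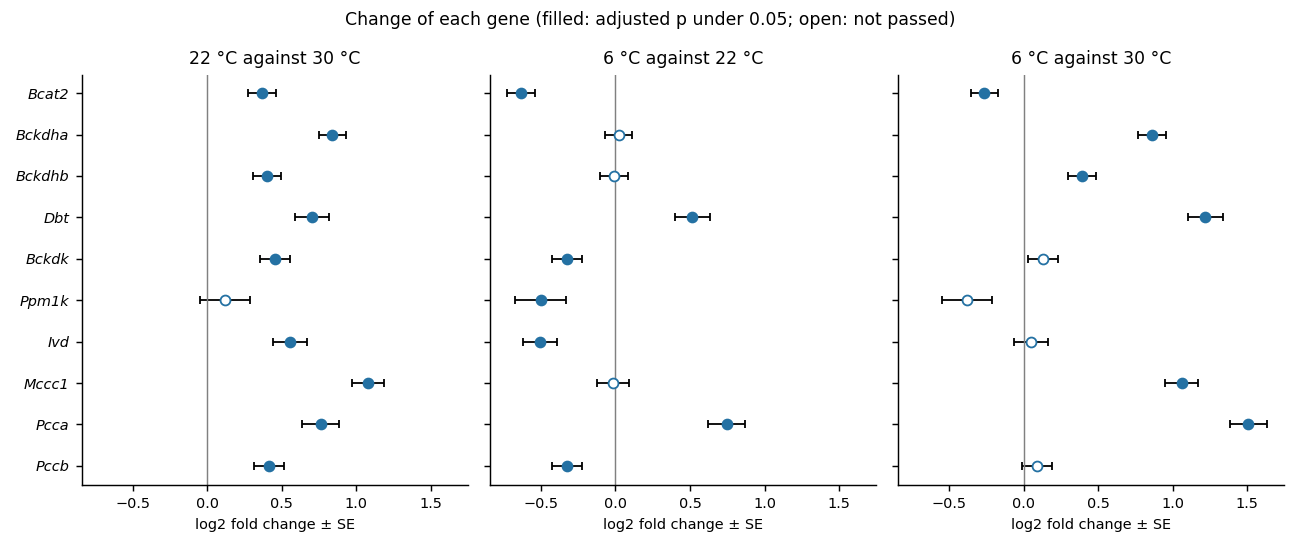
Log2 fold change with its SE (horizontal axis) of each of the 10 genes for each pair of temperatures, filled where the adjusted p was under 0.05. All 9 filled points for 22 °C against 30 °C lie to the right of 0, and the points for 6 °C against 22 °C lie on both sides of it. When scaled by total counts alone, 5 of the 9 were called.

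The kinase gene rose and then fell, and the phosphatase gene fell between 22 °C and 6 °C. Bckdk (chromosome 7 from 127904082 to 127910221) stood at 108 ± 10.9 CPM at 30 °C, 148 ± 18.9 at 22 °C and 118 ± 7.92 at 6 °C (SD, n = 4), with ranges of 92.0 to 116, 121 to 166 and 110.2 to 128 CPM. It rose by 0.45 at 22 °C (SE 0.10, adjusted p = 0.0028) and fell by 0.32 from 22 °C to 6 °C (SE 0.10, adjusted p = 0.026), edgeR QL test. At 6 °C against 30 °C it stood at 0.13 (SE 0.10, adjusted p = 0.29), and at -0.18 with total counts only. The rise was not called when scaled by total counts alone (0.19, adjusted p = 0.052). The fall was lost when any 1 of 22 °C mice 1, 2 and 4 or 6 °C mice 1, 2 and 4 was left out (adjusted p from 0.051 to 0.079). It was also lost with the macrophage markers as a covariate (-0.16, adjusted p = 0.48). Rise and fall were both lost with mouse number as a block, without mice A and B (adjusted p = 0.065 and 0.056).

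Ppm1k (chromosome 6 from 57506502 to 57535468) was the scarcest member, at 40.0 ± 5.63 CPM at 30 °C, 43.4 ± 7.63 at 22 °C and 30.7 ± 6.76 at 6 °C (SD, n = 4). The ranges of all 3 groups overlapped. It fell by 0.50 from 22 °C to 6 °C (SE 0.17, adjusted p = 0.038, edgeR QL test), a call lost without 22 °C mouse 1, 3 or 4 or 6 °C mouse 2 or 4 (adjusted p from 0.054 to 0.11), without a filter on low counts (0.065), with the muscle or macrophage markers as a covariate (0.052 and 0.28) and in a fit of only the 8 libraries compared (0.054). At 6 °C against 30 °C it stood at -0.38 (SE 0.17, adjusted p = 0.072), and that difference was called with upper-quartile scaling (-0.44, adjusted p = 0.043), with total counts only (-0.69, adjusted p = 0.0033) and without 30 °C mouse B or 6 °C mouse 1 (adjusted p = 0.037 and 0.039).

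Within a library, the ratio of the kinase to its substrate subunit fell with each step toward the cold. The log2 ratio of Bckdk to Bckdha was -1.85 ± 0.06 (SD, n = 4) at 30 °C, -2.24 ± 0.10 at 22 °C and -2.58 ± 0.05 at 6 °C. The 3 groups did not overlap (exact permutation p = 0.0286, 0.0361 adjusted, for each pair of temperatures). At 6 °C the ratio of counts was 0.602 times that at 30 °C. The ratio of kinase to phosphatase, Bckdk to Ppm1k, was 1.43 ± 0.11 at 30 °C, 1.77 ± 0.42 at 22 °C and 1.96 ± 0.33 at 6 °C. It was higher at 6 °C than at 30 °C (exact permutation p = 0.0286, 0.0361 adjusted, n = 4 each), and the 22 °C mice overlapped both other groups (p = 0.171 against 30 °C and 0.486 against 6 °C). Messenger RNA does not report the phosphorylation of the complex.

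**Figure D3:**
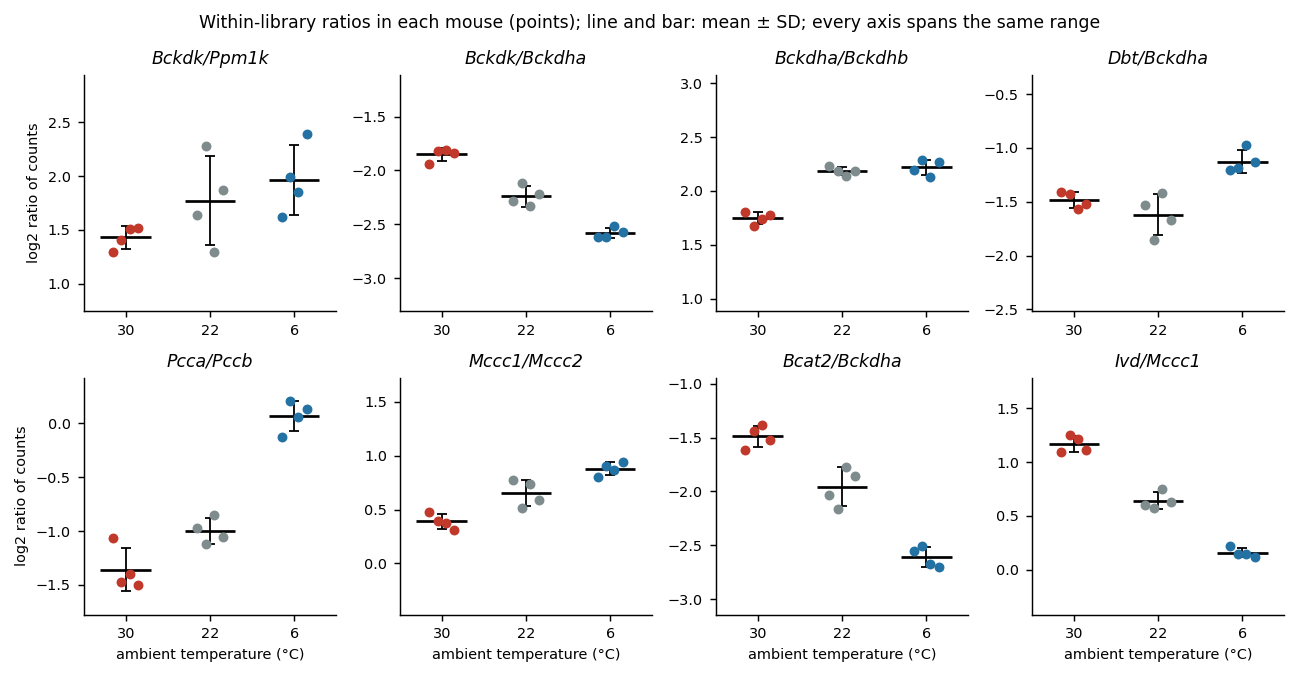
Log2 ratio of the counts of 2 genes in the same library (vertical axis, each panel spanning the same range) for each mouse at 30, 22 and 6 °C, with the mean and SD over 4 mice. The ratios of Bckdk and Bcat2 to Bckdha and of Ivd to Mccc1 fall at each step, and that of Pcca to Pccb rises between 22 °C and 6 °C.

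Bcat2 and Ivd were highest at 22 °C. Bcat2 (chromosome 7 from 45570153 to 45589711) stood at 136, 151, 153 and 114 CPM at 30 °C, at 185, 159.7, 179 and 191 CPM at 22 °C and at 118, 119, 115 and 109 CPM at 6 °C. It rose by 0.37 at 22 °C (SE 0.09, adjusted p = 0.0059) and fell by 0.63 from there to 6 °C (SE 0.09, adjusted p = 3.4e-04), edgeR QL test. The rise was not called when scaled by total counts alone (0.11, adjusted p = 0.30). With mouse number as a block, without mice A and B, Bcat2 did not pass at 22 °C either (0.31, adjusted p = 0.098). At 6 °C it was also lower than at 30 °C (-0.26, SE 0.09, adjusted p = 0.027), a call lost with RLE scaling (adjusted p = 0.072), DESeq2 (0.067), the 8 libraries alone (0.069), the muscle or macrophage markers as a covariate (0.061 and 0.15), and without 30 °C mouse 2 or A or 6 °C mouse 3 or 4 (0.060 to 0.085). Against Bckdha in the same library, Bcat2 fell at each step, and at 6 °C the ratio of counts was 0.46 times that at 30 °C (exact permutation p = 0.0286, 0.0361 adjusted, n = 4 each).

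Ivd (chromosome 2 from 118861954 to 118882909), isovaleryl-CoA dehydrogenase of the leucine branch, stood at 331, 299, 288 and 225 CPM at 30 °C, at 456, 365, 454 and 404 CPM at 22 °C and at 296, 277, 319.5 and 291 CPM at 6 °C. All 22 °C mice were above all others. Ivd rose by 0.55 (SE 0.11, adjusted p = 0.0016) and then fell by 0.50 (SE 0.11, adjusted p = 0.0046), edgeR QL test. With the macrophage markers as a covariate, Ivd was not called at 6 °C against 22 °C (-0.32, adjusted p = 0.17). At 6 °C against 30 °C it stood at 0.05 (SE 0.11, adjusted p = 0.73), and at -0.26 with total counts only (adjusted p = 0.037).

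Mccc1, which encodes the biotin-carrying subunit of the next enzyme of the leucine branch, kept its higher level. It lies on chromosome 3 from 35959312 to 36000678 and stood at 155, 126, 124 and 104 CPM at 30 °C, at 299.9, 245, 269 and 261 CPM at 22 °C and at 255, 250.4, 289 and 267 CPM at 6 °C. The 30 °C mice lay below all others. Mccc1 rose by 1.08 at 22 °C (SE 0.11, adjusted p = 2.0e-05) and stood at -0.02 for 6 °C against 22 °C (SE 0.11, adjusted p = 0.92), edgeR QL test. The log2 ratio of Ivd to Mccc1 was 1.17 ± 0.08 (SD, n = 4) at 30 °C, 0.64 ± 0.08 at 22 °C and 0.16 ± 0.04 at 6 °C, with no overlap of the groups (exact permutation p = 0.0286, 0.0361 adjusted, for each pair). The partner Mccc2, the non-biotin subunit, rose at 22 °C by 0.82 (SE 0.09, adjusted p = 2.4e-05, edgeR QL test). It fell by 0.24 from 22 °C to 6 °C, close to the threshold (SE 0.09, adjusted p = 0.045). The log2 ratio of Mccc1 to Mccc2 was 0.39 ± 0.07, 0.65 ± 0.12 and 0.88 ± 0.06 at 30, 22 and 6 °C (exact permutation p = 0.0286, 0.0361 adjusted, n = 4, for each pair). For both biotin carboxylases of the pathway, the ratio of the biotin-carrying to the other subunit was thus higher at 6 °C than at 22 °C or 30 °C.

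Counting members whose groups did not overlap gave the same number of rises and fewer falls. For 22 °C against 30 °C, 9 members were higher with no overlap, where 18.9% of all tested genes were. For 6 °C against 22 °C, 2 were higher (17.8% of all tested genes) and 3 lower (17.1%), while Bckdk and Ppm1k, called as lower, overlapped. For 6 °C against 30 °C, 5 were higher (24.1%) and 0 lower (27.4%), while Bcat2, called as lower, overlapped. Within the groups the libraries were uneven. In 30 °C mouse B all 10 members were at their lowest of that group, and this library had the highest summed fibroblast and preadipocyte markers, 5165 CPM against 2702 to 3046 CPM in the other mice at 30 °C, and the highest summed macrophage markers, 1719 CPM against 528 to 1408 CPM. Their part in the low values was not tested. In 22 °C mouse 1 and in 6 °C mouse 3, 8 of the 10 were at their highest of the group. Without mice A and B, 9 members were still higher at 22 °C than at 30 °C.

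The steps themselves differed for 6 of the 10 genes. In the test of the step from 22 °C to 6 °C minus the step from 30 °C to 22 °C, Mccc1 stood at -1.09 (SE 0.18, adjusted p = 0.0013), Ivd at -1.06 (SE 0.19, adjusted p = 0.0020) and Bcat2 at -0.999 (SE 0.16, adjusted p = 9.8e-04) in the edgeR QL test. Bckdha (-0.82), Bckdk (-0.78) and Pccb (-0.74) were called in the same direction. Of all tested genes 15% were called in that direction and 14.3% in the other, 29.3% in all. For Pcca the steps differed by -0.02 (SE 0.21, adjusted p = 0.96) and for Dbt by -0.19 (SE 0.20, adjusted p = 0.52). Bckdhb (-0.41, adjusted p = 0.070) and Ppm1k (-0.62, adjusted p = 0.13) did not pass. The steps span unequal ranges of temperature and share the 22 °C mice.

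Per length of merged exons, Bckdha and Pccb were the most abundant members and Ppm1k the least at every temperature. Bckdha stood at 204 ± 21.2 CPM per kb at 30 °C (SD, n = 4) and Pccb at 194 ± 22.0, a difference within their spread, and at 6 °C at 371 ± 12.7 and 206 ± 17.2. Pcca had rank 6 of 10 at 30 °C, with 40.5 ± 7.66 CPM per kb, and rank 3 at 6 °C, with 115 ± 10.3, but with principal transcript lengths it had rank 3 at every temperature. Dbt, Pcca, Bcat2 and Bckdk lay between 29.1 and 41.6 CPM per kb at 30 °C, and their order there rests on small differences. The length matters most for Mccc1, whose merged exons span 10952 bases while its principal transcript has 2455. With principal transcripts it had rank 4 at 6 °C and not 9, and Pccb came before Bckdha at 30 °C.

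**Figure D4:**
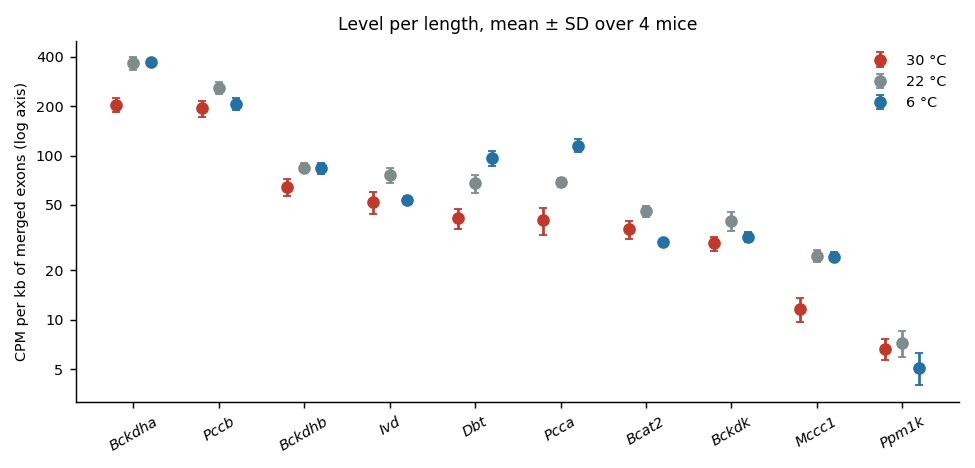
Level of each gene in CPM per kb of merged exons (vertical log axis) at 30, 22 and 6 °C, as the mean and SD over 4 mice, ordered by the 30 °C level. Ppm1k lies lowest at each temperature, and Pcca and Dbt spread widest upward between 30 °C and 6 °C.

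The other steps of the pathway mostly rose from 30 °C to 22 °C and then diverged. Of 17 such genes, 14 rose and 1 fell at 22 °C (median 0.50), 3 rose and 5 fell from 22 °C to 6 °C (median -0.12), and 10 were higher and 3 lower at 6 °C than at 30 °C (median 0.39). The shares over all tested genes are those given above for each comparison. Dld, the E3 subunit shared with the pyruvate and oxoglutarate complexes, rose at both steps, by 0.77 and 0.35. Mcee and Mut, which turn the product of propionyl-CoA carboxylase into succinyl-CoA, rose by 0.92 and 0.87 at 22 °C and stood at 0.30 (adjusted p = 0.060) and 0.0049 (adjusted p = 0.98) for 6 °C against 22 °C.

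On the valine branch, Acad8, Echs1, Hibch, Hibadh and Aldh6a1 rose at 22 °C by 0.48, 0.60, 0.57, 0.50 and 0.35. From 22 °C to 6 °C Aldh6a1, the last enzyme before propionyl-CoA, fell by 0.75 (adjusted p = 0.0011, edgeR QL test), and the other 4 did not pass. On the isoleucine branch, Acadsb, Hsd17b10 and Acat1 rose by 0.48, 0.39 and 0.70 at 22 °C. Hsd17b10 then fell by 0.88 to a level below that at 30 °C (-0.49, adjusted p = 5.7e-04). On the leucine branch, Auh, the hydratase after methylcrotonyl-CoA carboxylase, fell by 0.38 from 22 °C to 6 °C. Oxct1, which activates ketone bodies, moved the other way, falling by 0.25 and then rising by 0.31. Hsd17b4, a peroxisomal enzyme that stood in the list, rose at both steps (0.54 and 0.53). The cytosolic transaminase Bcat1 was scarce, at 1.42 to 2.21 CPM on average, and passed in no comparison.

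**Figure D5:**
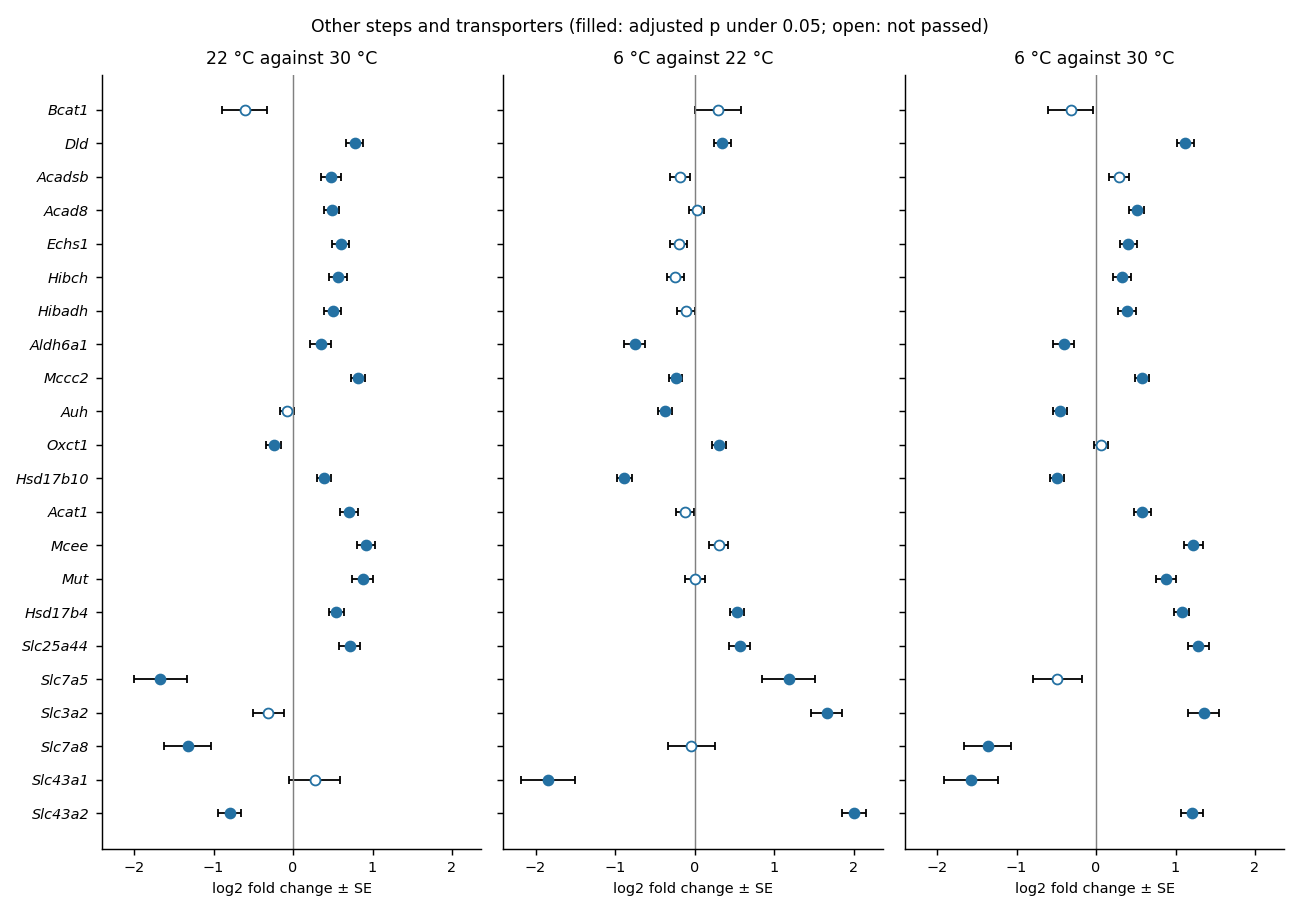
Log2 fold change with its SE (horizontal axis) of the other pathway genes named in the text and 6 transporters for each pair of temperatures, filled where the adjusted p was under 0.05. Most enzyme points lie right of 0 for 22 °C against 30 °C, and Hsd17b10 and Aldh6a1 lie farthest left among the enzymes for 6 °C against 22 °C.

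Transport genes followed no single course. Slc25a44, the mitochondrial carrier of branched-chain amino acids, rose from 77.6 ± 6.63 CPM at 30 °C (SD, n = 4) to 127 ± 17.2 at 22 °C and 189 ± 34.9 at 6 °C (log2 fold change 1.28 over both steps, SE 0.13, adjusted p = 4.9e-06, edgeR QL test). Slc43a2, a plasma membrane carrier of large neutral amino acids, fell by 0.80 at 22 °C and rose by 2.01 from there to 6 °C. Slc3a2, the heavy chain of heteromeric amino acid carriers, rose by 1.66 from 22 °C to 6 °C, after -0.31 at 22 °C (adjusted p = 0.21). Its light chain Slc7a5, scarce at 0.695 to 2.23 CPM on average, fell by 1.67 at 22 °C and rose by 1.18 from there to 6 °C, and stood at -0.49 for 6 °C against 30 °C (adjusted p = 0.19). Slc7a8 fell by 1.33 at 22 °C, and Slc43a1 fell by 1.84 from 22 °C to 6 °C. Of the 7 genes listed 6 were tested. At 22 °C against 30 °C 1 rose and 3 fell (21.8% and 22.8% of all tested genes did). For 6 °C against 22 °C 4 rose and 1 fell (16.9% and 17.4%), and for 6 °C against 30 °C 3 rose and 2 fell (25.3% and 31.5%).

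Genes that supply the cofactors of these enzymes were mostly higher in the colder groups. Of 12 genes for biotin, lipoate and cobalamin supply, 9 rose and 0 fell at 22 °C (21.8% and 22.8% of all tested genes did). From 22 °C to 6 °C 4 rose and 2 fell (16.9% and 17.4%). At 6 °C 8 were higher and 0 lower than at 30 °C (25.3% and 31.5%). Lipt1, a lipoyltransferase, and Mmab, which makes the cobalamin cofactor of methylmalonyl-CoA mutase, stood at 1.31 and 1.29 for 6 °C against 30 °C, and Lmbrd1, of lysosomal cobalamin export, and Mmaa, of the cobalamin pathway, at 0.63 and 0.73. Hlcs, which attaches biotin to the carboxylases, passed in no comparison (0.11 at 6 °C against 30 °C, adjusted p = 0.55).

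Genes of the sister complexes were mostly higher in the colder groups. The list of the pyruvate and oxoglutarate dehydrogenase complexes and their regulators held 13 tested genes (14 listed). Of these, 11 were higher and 1 lower at 6 °C than at 30 °C (median 1.18), where 25.3% and 31.5% of all tested genes were. At 22 °C 10 rose and 2 fell (21.8% and 22.8%), and from 22 °C to 6 °C 7 rose and 0 fell (16.9% and 17.4%). Pdhx, Pdpr, Pdhb and Pdha1 stood at 1.41, 1.18, 1.53 and 1.41 for 6 °C against 30 °C. The biotin carboxylases outside the pathway, Pcx, Acaca and Acacb, were all higher at 6 °C than at 30 °C (0.80, 3.10 and 2.21) and at 22 °C than at 30 °C (1.10, 2.52 and 1.66), and from 22 °C to 6 °C Pcx fell by 0.30 and Acacb rose by 0.55. The difference between these complexes and the branched-chain complex was not tested.

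Of 9 regulators linked to the pathway, 4 were higher and 0 lower at 6 °C than at 30 °C (25.3% and 31.5% of all tested genes were). At 22 °C 4 rose and 0 fell (21.8% and 22.8%), and from 22 °C to 6 °C 2 rose and 0 fell (16.9% and 17.4%). In either direction 56.8%, 44.6% and 34.2% of all tested genes passed, in that order. Klf15, a transcription factor known to drive branched-chain amino acid breakdown in muscle and heart, rose by 0.95 at 22 °C (SE 0.32, adjusted p = 0.034, edgeR QL test) and stood at -0.39 for 6 °C against 22 °C (SE 0.32, adjusted p = 0.37). Ppargc1a, a coactivator of mitochondrial genes, stood at 0.27 at 22 °C (adjusted p = 0.36) and rose by 0.92 from there to 6 °C (adjusted p = 0.0099). Esrra, the estrogen-related receptor alpha, rose at both steps, by 0.56 and 0.31.

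The genes whose course over the 12 libraries lay nearest to each member were found by the root mean square difference of log2 CPM, centred on the gene's mean, among the 10176 genes averaging 5 CPM or more. Nearest to Pcca was Hadha, a subunit of the mitochondrial trifunctional protein, at 0.09, and nearest to Dbt was Hspa9, a mitochondrial chaperone, at 0.09. Bckdha lay nearest to Aifm1 (0.06), Bckdhb to Mrps30 (0.06) and Bckdk to Cox4i1, a subunit of cytochrome c oxidase (0.05). The gene nearest to Pccb was another member, Bckdk, at 0.06. Mccc1 lay nearest to Sfxn1 (0.09) and had Mut at rank 3 (0.10), Ivd lay nearest to Adhfe1 (0.10), and Bcat2 to Slc25a23 (0.11). Ppm1k had the most distant nearest gene of the 10, Mcph1 at 0.16.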

How the data were processed

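The values are raw read counts by Ensembl gene in 1 deposited table that the authors left unnormalised. The submitters' processing notes list STAR 2.4.2a, FastQC 0.10.1, edgeR 3.14.0, mm10 and GRCm38 and give none of them a role. How reads were assigned to genes, with which annotation and whether by strand, is not stated in the labels. Mouse numbers in the labels name separate animals. In R 4.3.3, edgeR 4.0.16 kept 14870 genes (filterByExpr), scaled libraries by TMM, and fitted the 3 temperatures over all 12 mice (robust glmQLFit). Contrasts were tested two-sided (glmQLFTest), with Benjamini-Hochberg adjustment. The SE is the log2 fold change over the square root of F. Ratios used log2 counts plus 0.5, tested by exact permutation (scipy 1.17.1) and adjusted over 8 ratios and 3 pairs of temperatures. Positions and exon lengths came from GENCODE for GRCm38, which held 96.6% of the identifiers, and promoters from RefSeq (GRCm38.p6). The fit was run on simulated data, but the outcome is not reported here and nothing is concluded from it. The members and gene lists were chosen with earlier results of these data known. All members are named. The values of 1 gene of the list of other pathway steps are not reported here, and it remains in the counts of that list. Of the lists of cofactor supply and of the sister complexes the 4 genes with the smallest p at 6 °C against 30 °C were to be named, and Hlcs was added after its values were seen. Alternatives were other scalings (RLE, upper quartile, total counts, TMM without mitochondrial genes and Ucp1), filters, DESeq2 1.42.0, limma 3.58.1 voom, no robust estimation, only the 8 libraries compared, leaving out libraries, thinning 22 °C mouse 3, muscle or macrophage markers as a covariate, the mouse number as a block, and an adjusted p under 0.01.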

Additional observations from a re-analysis of the deposited data

Results flagged for a closer look

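The total count of 22 °C mouse 3, 86438386, stood apart from the other 3 libraries of its group, with a gap of 0.922 of the group's range. Of 57 groups of values examined this was the only one so far apart. Chance gives about 1 such group in 20. That rate is taken over all the groups, and it cannot show whether a total of this size is ordinary. The groups share libraries and genes and are not independent. When 22 °C mouse 3 was thinned, 9 members were still higher at 22 °C than at 30 °C. The code of this library is 8846, where the codes of all other libraries lie from 7509 to 7520. What the codes stand for is not given in the labels, and a difference in handling was not tested.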

How the results depend on the processing

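The 9 members higher at 22 °C than at 30 °C and the 5 higher at 6 °C than at 30 °C were 9 and 5 without any 1 library, and the 2 higher at 6 °C than at 22 °C were 2. Leaving out 1 library moved the count of members lower at 6 °C from 0 to 2 against 30 °C and from 2 to 5 against 22 °C, and values near 0 changed sign: Ivd at 6 °C against 30 °C (-0.052 to 0.13), Bckdha (-0.020 to 0.066), Bckdhb (-0.060 to 0.031) and Mccc1 (-0.060 to 0.040) at 6 °C against 22 °C, and Pcca for the difference of the steps (-0.13 to 0.096). The 1 member lower at 6 °C than at 30 °C became 0 with RLE scaling, DESeq2, only the 8 libraries compared, the muscle or macrophage covariate and an adjusted p under 0.01, 2 with upper-quartile scaling and 4 with total counts. The cause was not tested.

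At 6 °C against 22 °C, Bckdhb and Mccc1 stood at 0.019 and 0.011 with RLE scaling and at 0.019 and 0.011 with DESeq2. With upper-quartile scaling Ivd stood at -0.017 at 6 °C against 30 °C and the difference of the steps of Pcca at 0.017. With total counts only, 1939 genes were higher and 7888 lower at 6 °C than at 30 °C, 1419 and 6224 at 22 °C than at 30 °C with 5 members higher, and 1275 lower for the difference of the steps. Bckdk (-0.18), Ivd (-0.26) and Pccb (-0.22) changed sign at 6 °C against 30 °C, Ppm1k (-0.13) at 22 °C against 30 °C, Bckdha (-0.033) at 6 °C against 22 °C, and Dbt (0.0066) and Pcca (0.18) for the difference of the steps.

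With the macrophage markers as a covariate, 2349 genes were higher and 2425 lower at 6 °C than at 30 °C, 12 and 20 at 22 °C than at 30 °C with 0 members, 1230 and 1142 at 6 °C than at 22 °C with 1 member lower, and 7 and 1 for the difference of the steps with 0 members. Signs changed for Bckdk (-0.044), Ivd (-0.14) and Pccb (-0.10) at 6 °C against 30 °C, Ppm1k (-0.00019) at 22 °C against 30 °C, Bckdhb (0.17) and Mccc1 (0.18) at 6 °C against 22 °C, and Bckdhb (0.12), Dbt (0.41) and Pcca (0.82) for the difference of the steps. Without mice A and B, 2151 genes were higher at 22 °C, and Ivd stood at -0.080, Ppm1k at -0.017, Bckdhb at 0.0039 and Pcca at 0.16 in the same comparisons. Without these and 22 °C mouse 3, an alternative chosen after seeing the data, 2253 genes were lower at 22 °C, and Ivd stood at -0.081, Ppm1k at -0.089, Bckdha at -0.021 and Pcca at 0.16. At an adjusted p under 0.01, 1409 genes were higher and 1394 lower at 6 °C than at 22 °C with 2 members lower, and 1134 and 1102 for the difference of the steps.

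Mice with the same number did not deviate together throughout: their correlations ran from -0.21 to 0.26. Mice with different numbers were not correlated for comparison, so these values cannot decide whether equal numbers share a batch. The number as a replicate block was fitted to 10 libraries only, without mice A and B, which left mice 1 and 2 at 30 °C. Changes in this fit are therefore not those of the block alone. In it 2871 genes were lower at 6 °C than at 30 °C. At 22 °C against 30 °C 1624 genes were higher and 1621 lower, with 5 members higher. At 6 °C against 22 °C 3 members were lower. For the difference of the steps 1278 genes were higher and 1190 lower. Under the block Bcat2 was not called at 6 °C against 30 °C (-0.31, adjusted p = 0.064) and Ppm1k was (-0.52, adjusted p = 0.026). The rises of Bcat2, Bckdhb, Bckdk and Pccb at 22 °C and the falls of Bckdk and Pccb to 6 °C were lost. Pccb was not called for the difference of the steps (-0.64, adjusted p = 0.060), nor Bckdhb at 6 °C against 30 °C (0.31, adjusted p = 0.072). Ivd stood at -0.12 at 6 °C against 30 °C, Ppm1k at -0.027 at 22 °C against 30 °C, Bckdhb at 0.0035 at 6 °C against 22 °C, and Dbt at 0.026 and Pcca at 0.19 for the difference of the steps. Taken within mouse numbers, the log2 ratios at 6 °C against 30 °C rest on mice 1 and 2 only. They moved to 0.22 for Dbt to Bckdha, 0.42 for Mccc1 to Mccc2 and -1.01 for Bcat2 to Bckdha.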
